A study of Homo sapiens with 24 samples.

Results

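The interferon regulatory factors (IRFs) were followed through knockdown (KD) of 2 NF-κB subunit pairs in L1236, an established cell line grown from Hodgkin lymphoma. Members were the transcript clusters, which are probe sets for one locus each on the Affymetrix Human Gene 1.0 ST array, whose single gene symbol in the platform annotation was IRF1, IRF2, IRF3, IRF4, IRF5, IRF7, IRF8 or IRF9. Each gene had 1 such cluster, so the family held 8 of the 33297 clusters in the table and 8 of the 18417 genes named by a single symbol. All 8 members passed the filter on low values in both experiments.

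The series held 24 arrays in 2 experiments. The p50/RelA KD group received siRNA, short RNA that directs the degradation of a matching mRNA, against NFKB1 (1 µM for 3 days) together with siRNA against RELA (500 nM for 2 days), and control 1 received non-targeting siRNA. The p52/RelB KD group received siRNA against NFKB2 (500 nM for 2 days) together with siRNA against RELB (1 µM for 3 days), and control 2 again received non-targeting siRNA. Every group was followed for 1 further day in normal medium and had 6 arrays, made up of 2 siRNA sequences in each of 3 replicates. All groups were one cell line measured in bulk, so fewer cells expressing a gene and less RNA per cell cannot be told apart. The methods of the study call the replicates biological, and the arrays of a replicate differ in the siRNA that their cells received.

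IRFs are transcription factors that share a DNA-binding domain recognizing the interferon-stimulated response element (ISRE). IRF3, IRF5 and IRF7 lie latent in the cytoplasm until pattern-recognition receptors signal, and then switch on interferon genes. IRF1 and IRF9 act downstream of the interferon receptors, IRF2 competes with IRF1 for the same DNA sites, and IRF4 and IRF8 govern B cell and myeloid development. IRF4 protein, also called MUM1, is a marker used in the diagnosis of classical Hodgkin lymphoma, a tumour whose B cells carry constantly active NF-κB.

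The promoter windows below are shown because IRF1 was the only member called in the test of the difference between the KDs. Its window also holds letters matching the κB consensus, the sequence bound by NF-κB. Windows came from RefSeq on assembly GRCh38.p14 and ran from 250 bases before to 50 bases after a transcription start. Of the 8 members 5 had a window (IRF1, IRF4, IRF5, IRF8 and IRF9), 9 windows in all. Both strands were searched for the κB consensus, for the ISRE core (GAAA, any 2 bases, then GAAA) and for the GAS core TTCNNNGAA, found at genes that answer interferon gamma. Capitals mark the matches, and each window is written 5′ to 3′ along the gene's own strand.
IRF1, chr5:132490724-132491023, minus strand: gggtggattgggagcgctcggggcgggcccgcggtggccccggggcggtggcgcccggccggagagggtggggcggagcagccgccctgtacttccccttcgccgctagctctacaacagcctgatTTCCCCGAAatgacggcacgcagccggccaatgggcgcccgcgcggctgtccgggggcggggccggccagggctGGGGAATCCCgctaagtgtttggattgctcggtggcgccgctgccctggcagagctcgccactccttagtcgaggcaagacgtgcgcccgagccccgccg
IRF9, chr14:24161015-24161314, plus strand: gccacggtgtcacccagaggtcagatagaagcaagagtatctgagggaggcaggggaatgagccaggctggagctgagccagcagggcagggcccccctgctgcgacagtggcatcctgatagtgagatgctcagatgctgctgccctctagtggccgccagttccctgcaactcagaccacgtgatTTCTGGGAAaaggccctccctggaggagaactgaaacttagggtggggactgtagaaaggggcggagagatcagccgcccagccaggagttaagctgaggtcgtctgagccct
The IRF1 window held 1 κB match, beginning 50 bases before the start, and 1 GAS match, TTCCCCGAA, beginning 124 bases before it. The IRF9 window held 1 GAS match, TTCTGGGAA, beginning 63 bases before the start. No letters of these motifs lay in the windows of IRF4, IRF5 (4 windows) or IRF8 (2 windows), and the ISRE core lay in none of the 9. Among all 35116 windows of 300 bases, 11.3% held the κB consensus, 3.57% the ISRE core and 7.66% the GAS core, so a match in one window is a description and not evidence of binding.

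Levels below are log2 values from RMA, the method that corrects background, equalizes the arrays and summarizes the probes of a cluster. The median of an array was 6.94 to 6.99 in experiment 1 but 7.39 to 7.51 in experiment 2, so levels were compared within an experiment only. The number of arrays limits the precision, with a median standard error (SE) of 0.048 and 0.054 for a KD effect in experiments 1 and 2. The fit counted the 2 arrays of an arm in each replicate as separate units, so these errors and the p-values can be too small. With the sequences averaged per replicate, 44 clusters were called in the p50/RelA KD against 157. In the p52/RelB KD 631 were called against 1559. The targeted genes fell in their own experiment: NFKB1 was at 26.5% and RELA at 38.1% of control in the p50/RelA KD, and NFKB2 was at 39.4% and RELB at 82.0% of control in the p52/RelB KD. NFKB2 was also at 87.8% of control in the p50/RelA KD, and REL, the gene of a further NF-κB subunit, at 67.5% in the p52/RelB KD. NFKB1 was called higher in the p52/RelB KD, at 111% of control (adjusted p = 0.0374, limma). The array of the p52/RelB KD with sequence 2 in replicate 3 correlated least with its own group (mean r = 0.986, against 0.993 or more for every other array of both experiments). Passing the low-value limit did not separate Hodgkin and B cell markers from markers of other cells. In each experiment 7 of 7 Hodgkin cell markers and 6 of the 7 B cell markers on the array passed it. MS4A1, the gene of CD20, did not. No B cell marker was called in the p50/RelA KD, and in the p52/RelB KD CD22, a surface receptor of B cells, fell (-0.30, adjusted p = 0.0228, limma) and PAX5, the B lineage transcription factor, rose (0.19, adjusted p = 0.00646). Of 8 T and NK cell markers, 2 passed in experiment 1 and 7 in experiment 2, none of them called in either KD. No myeloid marker was called, though 3 of 7 passed in experiment 1 and 5 of 7 in experiment 2. Of 8 fibroblast, endothelial and epithelial markers 7 passed in each experiment. Of these, 1 was called, PECAM1, which B lineage cells can also express (0.19 in the p52/RelB KD, in 1 of its 2 clusters). Its other cluster lay under the limit in that experiment and was not tested (-0.33). Of the Hodgkin cell markers 3 fell in each KD, CCL22 and EBI3 in both, CCL17 in the p50/RelA KD and TRAF1 in the p52/RelB KD.

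In the p50/RelA KD, IRF1 and IRF5 fell and no member rose. IRF1, an activator of interferon-response and antigen-presentation genes, was at 78.3% of control, and IRF5, which carries signals of Toll-like receptors (TLRs) to cytokine genes, was at 83.1%. A cluster was called when its adjusted p by limma (Benjamini-Hochberg over all tested clusters) was below 0.05 and its log2 difference was at least 0.1375 in either direction. This limit, named the 10% limit below, is the size of a 10% rise, so a fall of slightly less than 10% could meet it. Calls below zero numbered 2 of 8 members, against 0.825% of the 14672 clusters tested (121), and calls above zero 0 of 8, against 0.245% (36). The median difference over the 8 members was -0.12 on the log2 scale, KD minus control, against 0.0012 over all tested clusters, and 4 members had an unadjusted p under 0.05, all of them lower, as had 10.5% of all tested clusters in either direction (1545).

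IRF1 lay between 8.94 and 9.42 on the p50/RelA KD arrays (median 9.23) and between 9.30 and 9.79 on the control 1 arrays (median 9.58). The groups overlapped through 1 low control array, that of sequence 2 in replicate 3, although all 6 KD arrays lay below the control mean of their own replicate. The difference was -0.35 ± 0.066 (SE, adjusted p = 0.0207, limma) with a 95% interval of -0.49 to -0.21. By replicate it was -0.24, -0.41 and -0.41, and by siRNA sequence, against the control arrays of the same sequence number, -0.40 and -0.30.

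IRF5 levels were 9.67 to 9.84 on the p50/RelA KD arrays (median 9.77) and 9.93 to 10.19 on the control 1 arrays (median 10.00). No KD array reached the lowest control array, and IRF5 was the only member of which that held, 1 of 8 against 1.11% of all tested clusters. Its difference was -0.27 ± 0.044 (SE, adjusted p = 0.0104, limma), with -0.14, -0.40 and -0.26 by replicate and -0.26 and -0.27 by sequence. The sequence values of IRF5 differed by 0.0088 ± 0.096 (SE), an error too wide to show that they were equal. The replicate values were further apart, and their spread was not tested.

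Calls for IRF1 and IRF5 rested on all 3 replicates together. Leaving out any replicate ended both calls (adjusted p by limma from 0.095 to 0.231 for IRF1 and from 0.057 to 0.163 for IRF5). IRF1 then lay between -0.41 and -0.32 and IRF5 between -0.33 and -0.20. Without replicates 1, 2 and 3 those fits called 18, 25 and 41 clusters in all, against 157. Fits of sequence 1 and sequence 2 alone called 37 and 3 clusters. Without 1 array at a time IRF5 was called in 12 of 12 fits, and IRF1 in 9 of 12. The 3 arrays whose removal ended the IRF1 call were the KD array of sequence 1 in replicate 1, the KD array of sequence 2 in replicate 2 and the control array of sequence 1 in replicate 2 (highest adjusted p 0.068). The IRF5 call also ended with either sequence alone (adjusted p = 0.179 and 1.00) or with the sequences averaged per replicate (0.134).

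IRF9, the DNA-binding subunit of the interferon-activated complex ISGF3, came closest to a call among the other members. It spanned 9.51 to 10.00 on the p50/RelA KD arrays (median 9.76) and 9.81 to 10.12 on the control 1 arrays (median 9.83). The wide spread followed the replicates, and within them all 6 KD arrays lay below their controls (mean differences -0.055, -0.16 and -0.31). IRF9 differed by -0.17 ± 0.043 (SE, adjusted p = 0.0765, limma), which did not pass. The exact permutation test of this gene alone within replicates gave p = 0.00926, the smallest the design can give (two-sided). IRF1 and IRF5 had the same permutation p in this KD, so it does not set IRF9 apart. That test also counts the arrays of a replicate as separate units.

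The remaining members in the p50/RelA KD showed smaller differences. IRF8, a regulator of germinal centre B cells and of myeloid cells, lay between 8.49 and 8.66 (median 8.62) against 8.63 to 8.87 (median 8.70) in control 1, with some overlap and a difference of -0.13 ± 0.049 (SE, adjusted p = 0.35, limma). IRF7, the main amplifier of type I interferon production, differed by -0.11 ± 0.066 (SE) and IRF3, which starts that production, by -0.078 ± 0.048 (SE), with adjusted p of 0.625 and 0.652. KD and control arrays overlapped widely for both, IRF7 at 7.88 to 8.33 in the KD against 7.93 to 8.36 in control 1 and IRF3 at 9.81 to 10.03 against 9.87 to 10.07. IRF2 and IRF4 lay near zero, at -0.0070 ± 0.053 and -0.0040 ± 0.035 (SE). The 95% interval of IRF4, -0.079 to 0.071, stayed within the 10% limit of 0.14, whereas the interval of IRF7 ran from -0.26 to 0.031.

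**Figure D1:**
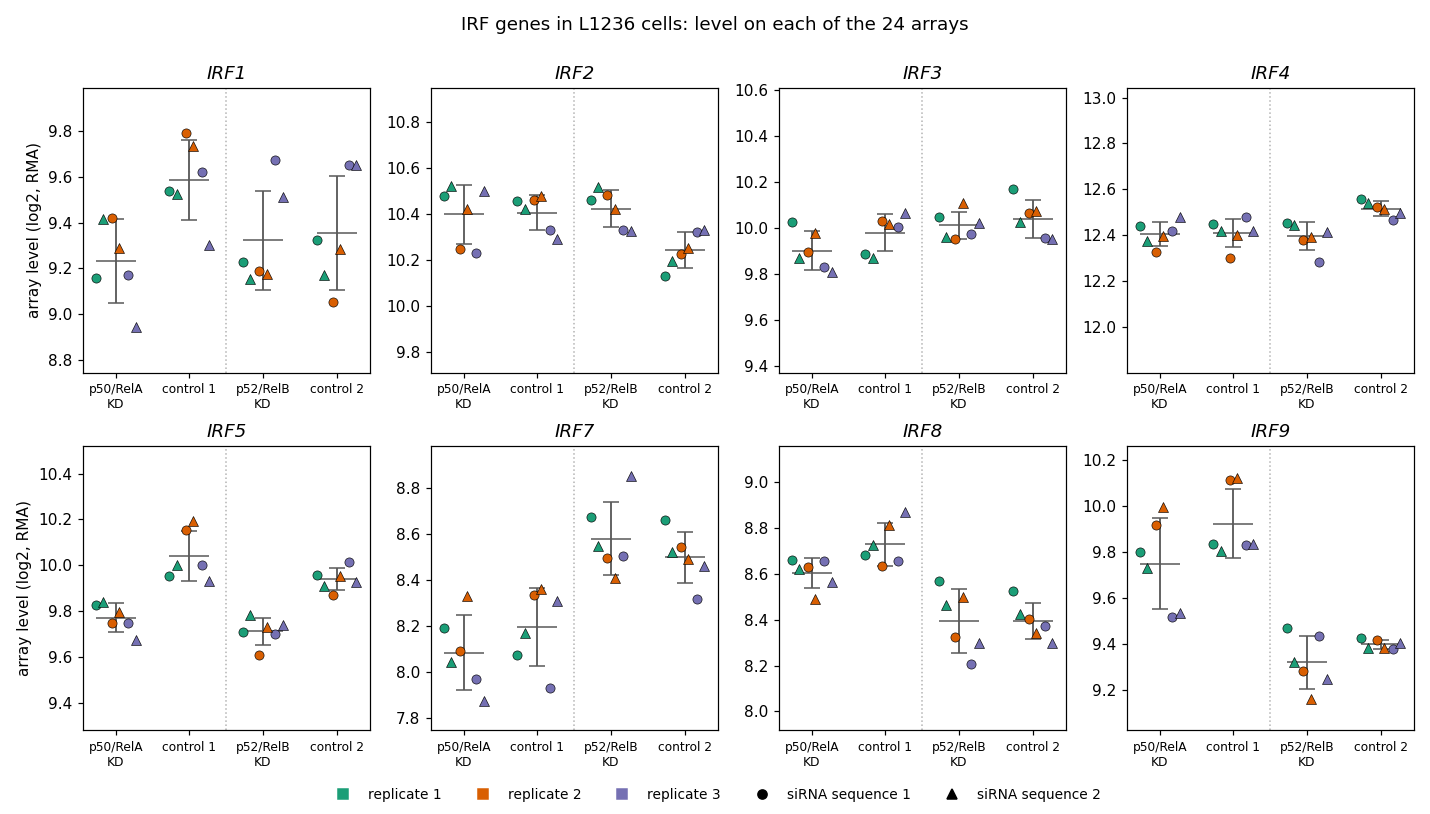
Level of each of the 8 IRF genes on every array (vertical axes, log2 RMA value, all panels spanning the same range), by group along the horizontal axes. Colours are replicates, circles and triangles are siRNA sequences 1 and 2, bars are means and SD of 6 arrays, and the dotted line divides the experiments, between which levels are not comparable. IRF5 arrays of each KD lie below all of their controls, while IRF1 is lower in the p50/RelA KD only and its replicates differ in both arms.

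In the p52/RelB KD, IRF5 fell and IRF2 rose. IRF5 was at 85.5% of control and IRF2, the repressor that competes with IRF1, at 113% of control, while IRF4 was at 91.9%, a change smaller than a call required. Calls below zero numbered 1 of 8 members against 5.75% of the 16101 clusters tested (926), and calls above zero 1 of 8 against 3.93% (633). The members' median difference was -0.031, against 0.019 over all tested clusters, and 3 members had an unadjusted p under 0.05 (IRF2, IRF4 and IRF5), as had 22.8% of all tested clusters (3668).

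IRF5 ranged from 9.61 to 9.78 on the p52/RelB KD arrays (median 9.72) and from 9.87 to 10.01 on the control 2 arrays (median 9.94). Again no KD array reached the controls. The difference was -0.23 ± 0.038 (SE, adjusted p = 0.00246, limma), with -0.19, -0.24 and -0.25 by replicate and -0.28 and -0.18 by sequence. It remained called without any 1 array (12 of 12 fits), but not without replicate 2 (adjusted p = 0.0651), with the sequences averaged per replicate (adjusted p = 0.0539) or with sequence 2 alone (-0.18, adjusted p = 0.525). Over all clusters the fits that ended the call held 470, 631 and 5 calls, against 1559.

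IRF2 values were 10.33 to 10.52 on the p52/RelB KD arrays (median 10.44) and 10.13 to 10.33 on the control 2 arrays (median 10.24). The groups met at the arrays of replicate 3, in which KD and control were alike. By replicate the difference was 0.33, 0.21 and 0.0018, and pooled it was 0.18 ± 0.050 (SE, adjusted p = 0.0395, limma). Replicate 3 was scanned in a batch of its own, apart from replicates 1 and 2, so the IRF2 difference was 0.27 (adjusted p = 0.00157, limma) within one scan batch and 0.0018 within the other. The part of the scan batch in this result was not tested. Leaving out any 1 of the 8 arrays of replicates 1 and 2 ended the call (highest adjusted p 0.102), as did leaving out replicate 1 (0.11, adjusted p = 0.425) or replicate 2 (0.16, adjusted p = 0.314) or centring each array on its median (0.17, adjusted p = 0.106).

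IRF4, which drives plasma cell differentiation and supports the growth of several B cell tumours, lay between 12.28 and 12.45 on the p52/RelB KD arrays (median 12.40) and between 12.46 and 12.56 on the control 2 arrays (median 12.52). KD and control arrays did not overlap for IRF4 or for IRF5, 2 of 8 members against 5.27% of all tested clusters. The IRF4 difference was small but even, -0.12 ± 0.033 (SE, adjusted p = 0.0367, limma), at -0.10, -0.13 and -0.13 by replicate and -0.14 and -0.10 by sequence. Its adjusted p passed and its size did not reach the 10% limit, so it was not called.

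Of the other members, IRF1 did not show in the p52/RelB KD the fall seen in the p50/RelA KD. It lay between 9.15 and 9.67 (median 9.21) against 9.05 to 9.65 (median 9.30) in control 2, with the arrays of replicate 3 highest in both groups. The difference was -0.034 ± 0.049 (SE, adjusted p = 0.72, limma), and its 95% interval of -0.14 to 0.073 did not reach the estimate of the p50/RelA KD. IRF9 spread over 9.16 to 9.47 on the KD arrays but over 9.38 to 9.43 on the control 2 arrays, so that KD arrays lay both above and below all controls. It stood at -0.080 ± 0.048 (SE, adjusted p = 0.36), IRF3 at -0.029 ± 0.043 and IRF8 at -0.00021 ± 0.046. IRF7 stood at 0.082 ± 0.073 (SE, adjusted p = 0.554), with 0.29 in replicate 3 against 0.020 and -0.067 in replicates 1 and 2. The highest IRF7 array, 0.47 above its controls, was the array of sequence 2 in replicate 3 that correlated least with its group, and without it the difference was 0.012.

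**Figure D2:**
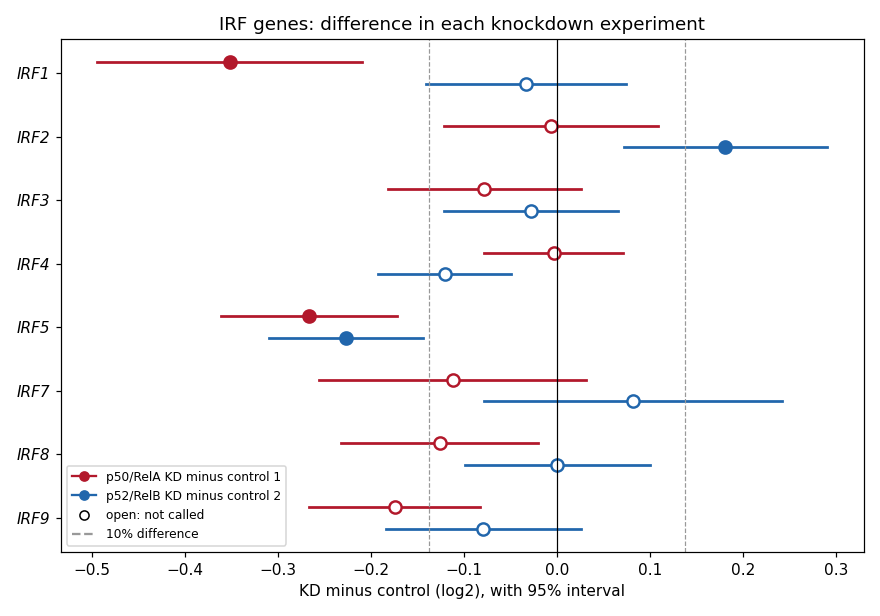
Difference of each IRF gene (horizontal axis, KD minus control, log2) in the p50/RelA KD (red, upper of each pair) and the p52/RelB KD (blue, lower). Points are limma estimates, lines their 95% intervals, filled points were called, and dashed lines mark the 10% limit of 0.14. IRF5 is called below zero in both KDs, IRF1 below zero in the p50/RelA KD and IRF2 above zero in the p52/RelB KD.

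Whether the KDs differed was tested directly in 1 limma fit over all 24 arrays. IRF1 was the only member called in that test: the p52/RelB effect minus the p50/RelA effect was 0.32 ± 0.086 (SE, adjusted p = 0.0358), with a 95% interval of 0.14 to 0.50. That is 1 of 8 members, against 4.35% of the 14647 clusters tested in both experiments (637). Within 10 of 24 fits without 1 array the IRF1 difference was called, and in the other 14 it was not (values from 0.27 to 0.36, highest adjusted p 0.074). Without a replicate it was not called (0.38, 0.27 and 0.30 without replicates 1, 2 and 3, adjusted p = 0.113, 0.285 and 0.105). Those fits called 168, 221 and 292 clusters in all, against 637.

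IRF5 had an effect difference of 0.040 ± 0.056 (SE, adjusted p = 0.805, limma), with a 95% interval of -0.077 to 0.16, so the data bound the difference between its KD effects but do not show them to be equal. IRF2 differed by 0.19 ± 0.074 (SE, adjusted p = 0.182) and IRF4 by -0.12 ± 0.043 (SE, adjusted p = 0.142), neither of which passed. Without replicate 3, in which IRF2 was alike in p52/RelB KD and control 2 arrays, the IRF2 difference was 0.31 ± 0.070 (SE, adjusted p = 0.0329, limma) and was called. With all replicates the calls of IRF2 in one KD and not in the other do not show that its response differed. For IRF7, IRF8, IRF9 and IRF3 the values were 0.19, 0.13, 0.095 and 0.050, with adjusted p from 0.368 to 0.786. Experiment and scan batch cannot be told apart in these comparisons, since no batch held arrays of both experiments.

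Sequence 1 was set against sequence 2, each as KD arrays minus the control arrays of the same sequence number. Non-targeting siRNAs have no link to the targeting siRNAs of the same number. Differences between the controls therefore enter this comparison, and it cannot assign a difference to the targeting siRNA alone. No cluster of any gene was called in experiment 1 (0% of 14672) or in experiment 2 (0% of 16101), and so 0 of 8 members. By the unadjusted p of limma, 1 member fell below 0.05, which was IRF8 in experiment 1. There the KD effect was -0.0068 with sequence 1 and -0.25 with sequence 2, a difference of 0.24 ± 0.078 (SE, unadjusted p = 0.0108, adjusted p = 1.00, limma). Part of it lay in the controls. In replicates 1, 2 and 3 the control 1 arrays of IRF8 were at 8.68, 8.63 and 8.65 with sequence 1. With sequence 2 they were at 8.73, 8.81 and 8.87. The IRF1 effect was -0.40 with sequence 1 and -0.30 with sequence 2 (difference -0.095 ± 0.13, SE), and the IRF2 effect of experiment 2 was 0.20 and 0.16 (difference 0.038 ± 0.11, SE).

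**Figure D3:**
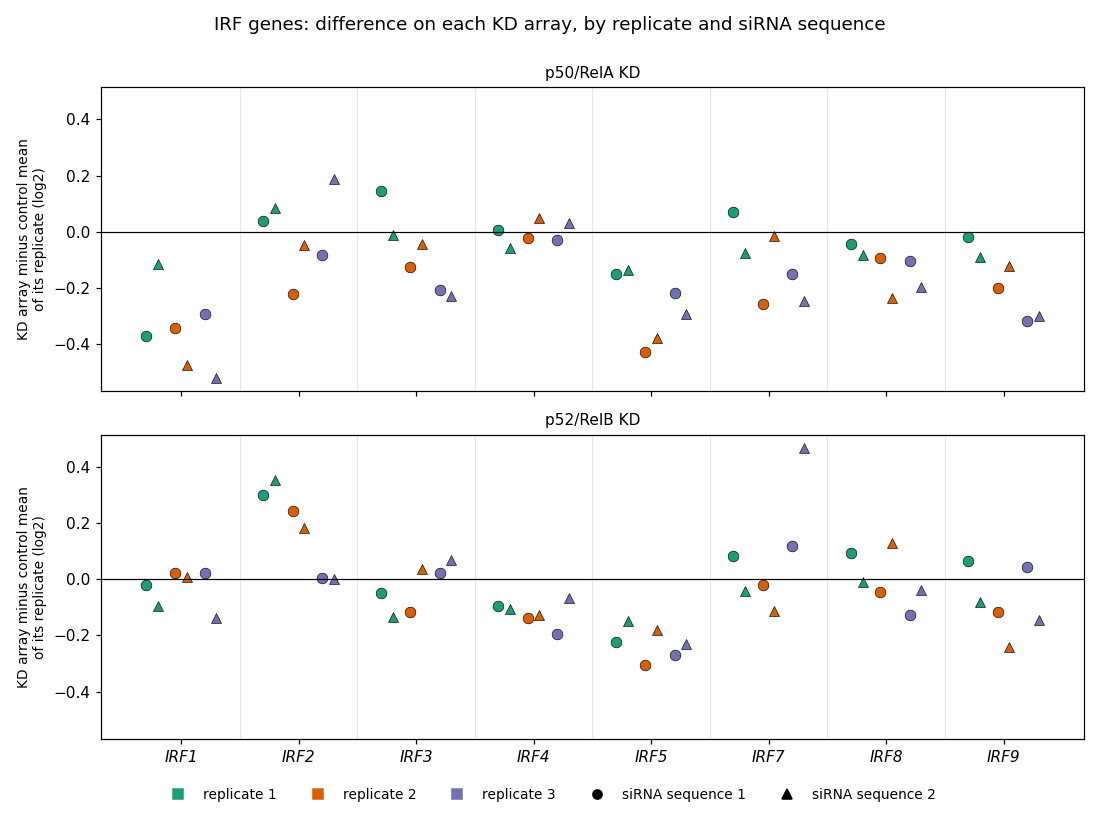
Each KD array minus the mean of the 2 control arrays of its replicate (vertical axis, log2) for the 8 IRF genes, with the p50/RelA KD above and the p52/RelB KD below. Colours are replicates, and circles and triangles are siRNA sequences 1 and 2. All 6 points of IRF1, IRF5, IRF8 and IRF9 in the p50/RelA KD and of IRF4 and IRF5 in the p52/RelB KD lie below zero, and IRF2 in the p52/RelB KD is high in replicates 1 and 2 and at zero in replicate 3.

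Balances between members were taken within each array, with no test. IRF1 minus IRF2, the activator over its competitor, averaged -1.17 ± 0.25 on the p50/RelA KD arrays and -0.82 ± 0.13 on the control 1 arrays (SD, n = 6 each). In experiment 2 it averaged -1.10 ± 0.29 on the p52/RelB KD arrays and -0.89 ± 0.20 on the control 2 arrays (SD, n = 6 each). The balance shifted by -0.35 and -0.21, the first made up of the fall of IRF1 and the second mostly of the rise of IRF2, and the arrays overlapped in both. IRF5 minus IRF4 shifted by -0.26 in the p50/RelA KD without overlap and by -0.11 in the p52/RelB KD with overlap. IRF4 minus IRF8, which oppose each other in B cell differentiation, shifted by 0.12 in the p50/RelA KD and by -0.12 in the p52/RelB KD, and both arms overlapped. These values show unequal change within an array and do not rank one gene's level against another's, since different probes have different brightness.

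Genes with the pattern most like that of each called member were found by the smallest root mean square gap over the 24 arrays, after centring each gene on its mean in each experiment. For IRF1, which itself varied by 0.23 in this measure, the nearest were IL6, an inflammatory cytokine (gap 0.12), TNFRSF9, the costimulatory receptor 4-1BB (0.13), and JUN, an AP-1 subunit (0.14). IL6 differed by -0.36 in the p50/RelA KD and by -0.018 in the p52/RelB KD, TNFRSF9 by -0.56 and -0.11, and JUN by -0.27 and -0.042. For IRF5 (own variation 0.14) the nearest were TAP1, a subunit of the peptide transporter of MHC class I (0.074), CCDC24 (0.076) and SUSD4, a regulator of complement (0.079). For IRF2 (own variation 0.11) they were ATPAF2, an assembly factor of the mitochondrial ATP synthase (0.063), PRPF19, a splicing factor (0.066), and TM7SF2, an enzyme of sterol synthesis (0.068). The arrays of a replicate share their batch and normalization, so a small gap describes these arrays and no p is attached to it.

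Genes around the family were counted from lists ordered by role, and a gene with several clusters counted as called when any of its clusters was. Over all tested clusters, calls below zero were 0.825% in the p50/RelA KD and 5.75% in the p52/RelB KD. Calls above zero were 0.245% and 3.93%. Of the 16 interferon ligands on the array, 3 passed the low-value limit in each experiment (IFNL1, IFNL2 and IFNL3) and none was called. IFNB1, a direct target of activated IRF3, lay below the limit at 3.65 in the p50/RelA KD against 3.80 in control 1, and at 4.57 in the p52/RelB KD against 4.49 in control 2. Of 6 interferon receptor chains none was called in the p50/RelA KD and 1 in the p52/RelB KD, IFNGR2, the signalling chain of the interferon gamma receptor (-0.30 ± 0.036, SE, adjusted p = 0.00024, limma). IFNGR2 was at -0.092 ± 0.030 (SE) in the p50/RelA KD, and its effects differed between the KDs (-0.21 ± 0.042, SE, adjusted p = 0.00447).

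The Janus kinases that the receptors carry, JAK1, JAK2 and TYK2, rose in the p52/RelB KD (3 of 3, against 3.93% of all tested clusters). They rose by 0.19, 0.20 and 0.25 (adjusted p = 0.00823, 0.0491 and 0.000815, limma). None was called in the p50/RelA KD, where JAK1 and JAK2 also lay above zero (0.098 and 0.088) and TYK2 was at -0.045. The difference between the KDs passed for TYK2 (0.30 ± 0.051, SE, adjusted p = 0.00134, limma). It did not pass for JAK1 or JAK2 (0.094 and 0.11, adjusted p = 0.352 and 0.44, limma).

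Upstream of IRF3, IRF5 and IRF7, 14 of 19 sensors and adaptors were tested in each experiment. The share of all tested clusters called lower was 0.825% in the p50/RelA KD and 5.75% in the p52/RelB KD. In the p50/RelA KD 3 fell, all of the RIG-I family of cytoplasmic RNA sensors: IFIH1, the gene of MDA5 (-0.42 ± 0.065, SE), DHX58 (-0.28 ± 0.061) and RIGI (-0.18 ± 0.039). In the p52/RelB KD 4 fell, namely IFIH1 (-0.52 ± 0.13, SE), the DNA-signalling adaptor STING1 (-0.24 ± 0.032), the TLR chaperone UNC93B1 in 1 of its 3 clusters (-0.18 ± 0.040) and SLC15A4 (-0.18 ± 0.051), a lysosomal transporter that TLR signalling to IRF5 requires. IFIH1 fell in both KDs, and in the p52/RelB KD it was at -0.30, -0.36 and -0.91 in replicates 1, 2 and 3. RIGI was at -0.26 ± 0.077 (SE, adjusted p = 0.0541, limma) in the p52/RelB KD, which was not called. The RIGI effects did not pass the test of their difference (-0.078, adjusted p = 0.751, limma). STING1 (-0.28 ± 0.042, SE, adjusted p = 0.00043, limma) and DHX58 (0.31 ± 0.080, adjusted p = 0.0304) had effects that differed between the KDs. TLR7 and TLR8, which signal through IRF5, lay below the low-value limit, and TLR9 was not called in either KD (0.057 and 0.10). Of the 4 kinases of IRF3, IRF5 and IRF7, CHUK, the gene of IKK-alpha, rose in the p52/RelB KD (0.19 ± 0.048, SE, adjusted p = 0.0295, limma), and TBK1, IKBKE and IKBKB were not called in either.

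Among 12 partners and corepressors, BATF2, an AP-1 family factor that works with IRF1 in mouse macrophages, fell in both KDs (-0.23 ± 0.051 and -0.23 ± 0.039, SE, adjusted p = 0.0495 and 0.0028, limma). BATF, the partner of IRF4 and IRF8 on composite sites, rose in the p52/RelB KD (0.16 ± 0.039, SE) and was not called in the p50/RelA KD, but its effects did not pass the test of their difference (0.17, adjusted p = 0.0661), and the ETS partners SPI1 and SPIB were not called. IRF2BP2, a corepressor of IRF2, was at -0.055 in the p50/RelA KD and at -0.019 in the p52/RelB KD.

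Genes bound by IRF1 in interferon responses numbered 15 tested in each experiment. Their counts stand beside 0.825% called lower in the p50/RelA KD and 5.75% lower or 3.93% higher in the p52/RelB KD. In the p50/RelA KD 2 fell and none rose, GBP4, an interferon-induced GTPase (-0.40 ± 0.067, SE, adjusted p = 0.012, limma), and TAP1 (-0.27 ± 0.043, adjusted p = 0.00897), with a list median of -0.12. TAP1 had 3 clusters with identical values and counted once. In the p52/RelB KD 2 fell, TAP1 (-0.15 ± 0.036, SE) and GBP2 in 1 of its 2 clusters (-0.41 ± 0.094), and 1 rose, GBP5 (0.35 ± 0.085), with a list median of -0.030. The effects of GBP4 (0.47 ± 0.12, SE, adjusted p = 0.0311, limma) and GBP5 (0.59 ± 0.12, adjusted p = 0.00612) differed between the KDs. Those of TAP2, the other transporter subunit, did so in 2 of its 3 clusters (0.32 and 0.34). No other tested gene of this list passed that test. TAP1 was at 0.12 (adjusted p = 0.265, limma), and the clusters of GBP2 lay the other way at -0.30 and -0.089.

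Genes bound by the IRF9-containing complex ISGF3 held 5 calls among 34 tested in the p50/RelA KD, all of them lower. They were TRIM22 (-0.56 ± 0.071, SE), OAS3 (-0.53 ± 0.056), MX1 (-0.48 ± 0.086), XAF1 (-0.43 ± 0.081) and IFI35 (-0.27 ± 0.058), antiviral effectors and other interferon-induced genes, and the list median was -0.17. In the p52/RelB KD 3 of 33 rose, IFIT3 (0.37 ± 0.11, SE), RTP4 (0.34 ± 0.054) and OAS3 (0.26 ± 0.074), 1 fell, IFITM1 (-0.34 ± 0.059), and the list median was 0.019. OAS3 was thus called in opposite directions, and its effects differed by 0.79 ± 0.096 (SE, adjusted p = 3.19e-05, limma). XAF1, IFIT3, SAMD9L, RTP4 and IFI35 also had effects that differed between the KDs (0.65, 0.73, 0.55, 0.33 and 0.35). The counts stand beside backgrounds of 0.825% lower in the p50/RelA KD and 5.75% lower or 3.93% higher in the p52/RelB KD.

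Of 9 tested genes tied to IRF4 in B cells, 6 were not called in the p50/RelA KD and 3 were not called in the p52/RelB KD, with list medians of -0.038 and -0.053. Shares called lower over all tested clusters were 0.825% and 5.75% in these KDs, and shares called higher 0.245% and 3.93%. In the p50/RelA KD 2 of 9 fell, EBI3, a cytokine subunit (-0.48 ± 0.037, SE), and CD40 (-0.19 ± 0.037), and BCL6, the germinal centre repressor that IRF4 can silence, rose (0.32 ± 0.045). In the p52/RelB KD PRDM1, the gene of the plasma cell regulator Blimp-1 and a target of IRF4, fell (-0.40 ± 0.046, SE), as did CD40 (-0.29 ± 0.041) and EBI3 (-0.21 ± 0.057), while BCL6 (0.20 ± 0.052), PAX5 (0.19 ± 0.038) and BATF (0.16 ± 0.039) rose. The PRDM1 effects differed between the KDs by -0.46 ± 0.093 (SE, adjusted p = 0.00579, limma), and those of EBI3, PAX5 and CD86 by 0.27, 0.23 and 0.22, while BCL6 rose in both KDs.

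**Figure D4:**
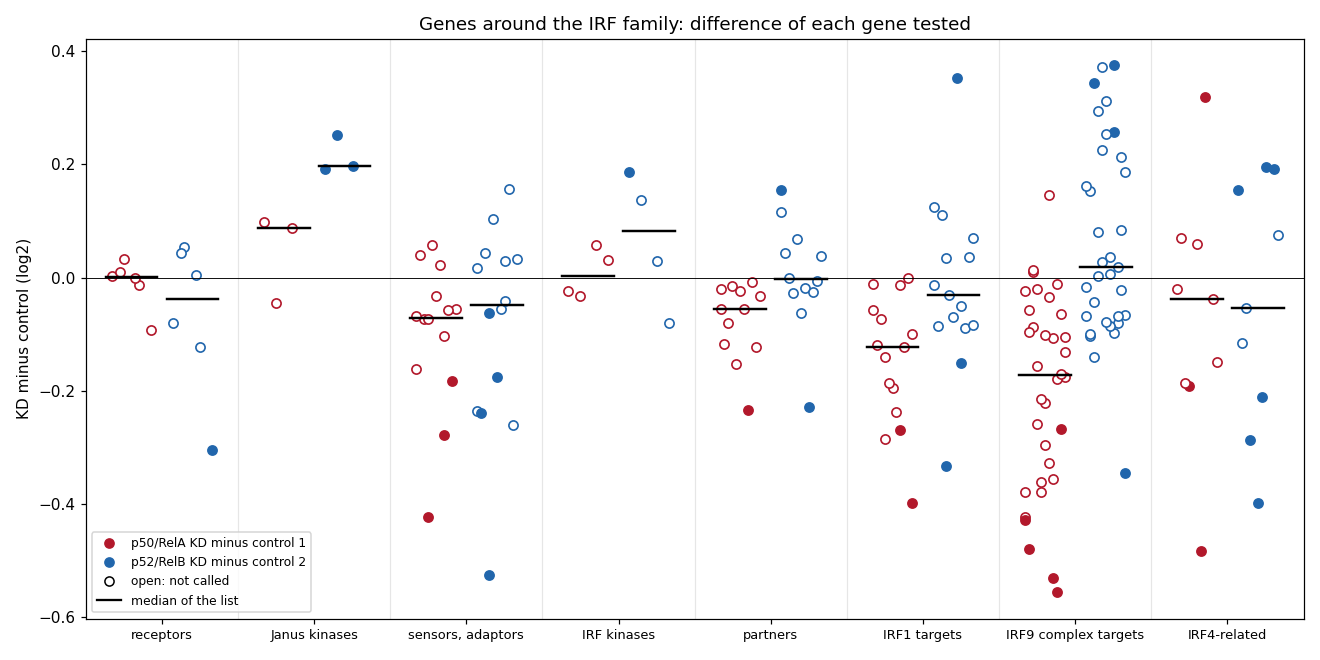
Difference of each tested gene around the IRF family (vertical axis, KD minus control, log2) by list along the horizontal axis, with the p50/RelA KD in red on the left of each list and the p52/RelB KD in blue on the right. Filled points were called, a gene with several clusters is drawn at their mean and filled if any was called, and black lines are list medians. The genes bound by the IRF9 complex have a median of -0.17 in the p50/RelA KD and of 0.019 in the p52/RelB KD.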

How the data were processed

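RNA of 24 samples of L1236 cells was measured on Affymetrix Human Gene 1.0 ST arrays. Deposited values were on the log2 scale, made by the authors with RMA (version not given in the sources used here). The methods name an adjustment for covariates without listing them; the replicates still differed in the deposited values. RMA gives no detection call and compresses large differences. Of 33297 clusters, 19460 had 1 symbol in the platform annotation, and 19429 of these took it from the NCBI table of GRCh38.p14 while 31 kept the older one. Clusters below 6 in 50% or more of the 12 arrays of an experiment were left out. limma 3.58.1 (lmFit, eBayes) in R 4.3.3 was fitted per experiment with the replicate as a block, and p-values were adjusted over all tested clusters. Limma took the place of the two-sample test of the methods, and the code was tested on simulated data. The methods state 3 biological replicates, and deviations of KD and control arrays of a replicate had correlations of 0.448, 0.195 and 0.251 (experiment 1) or 0.574, 0.268 and 0.377 (experiment 2), so replicates were treated as paired. Every member was named, with called genes of each list and the 3 nearest patterns. Members and lists were chosen with earlier results of these data known. The alternatives are given in the closing section.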

Additional observations from a re-analysis of the deposited data

Results flagged for a closer look

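In the main fit the response of IRF1 differed between the KDs: its p52/RelB effect minus its p50/RelA effect was 0.32 on the log2 scale (0.3181, adjusted p = 0.0358, limma). This call was not stable. It held in 7 of 16 alternatives and in 10 of 24 fits without 1 array, and it was lost without any one replicate. IRF1 was at -0.35 in the p50/RelA KD and at -0.034 in the p52/RelB KD, with 6 of 6 and 3 of 6 KD arrays below the control mean of their replicate. None of the 32 sets of 6 arrays, 8 members in 4 groups, held an array set apart from the rest by more than 0.625 of the range.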

How the results depend on the processing

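No member changed direction at a called value. Without the replicate block 1 member was called in the p50/RelA KD (IRF5, with IRF1 at adjusted p = 0.116, and 59 clusters in all against 157), 2 in the p52/RelB KD (880 clusters against 1559) and 0 for the difference between the KDs. In the p50/RelA KD the count was 1 with sequence 1 alone (IRF1), 0 with sequence 2 alone and 1 with the sequences averaged (IRF1). It was 0 by the methods' t-test on deposited values. Over all clusters these fits called 37, 3, 44 and 30, against 157 in the main fit. The count was 3, with IRF9 added, under a low-value limit of 7 and under a trended robust prior. The methods' t-test gave the same 3 once replicate means were removed. Those 3 fits called 223, 260 and 276 clusters. In the p52/RelB KD the count was 1 (IRF5) without a low-value filter and over all clusters named or not. It was also 1 (IRF5) with arrays centred on the median and with sequence 1 alone. The count was 0 with sequence 2 alone, which called 5 clusters in all against 1559, and with the sequences averaged (631). For the difference the count was 0 without a filter, over all clusters, after centring, with sequence 2 alone and with the sequences averaged. It was 2 (IRF1 and IRF4) without the arrays that stand apart. Sequence 2 alone called 3 clusters for the difference and averaging called 117, against 637. Leaving out a replicate or 1 array gave counts of 0 to 2 in each KD and of 0 to 1 for the difference (IRF1 without 1 array, IRF2 without replicate 3). Of 144, 144 and 128 values of single members under other alternatives, 128, 133 and 117 kept their side of the threshold in the p50/RelA KD, the p52/RelB KD and the difference; the sequence comparison held 0 calls throughout. A further quantile normalization left 62.3% of the calls in the p50/RelA KD below zero (142 of 228), against 77.1% (121 of 157). Testing clusters with several symbols as well and leaving out single arrays were chosen after seeing the data. Differences under about 10% could not be called by construction.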
